A study of Rattus norvegicus with 12 samples.

Results

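The genes described here are 10 members and targets of the YAP pathway: the CCN genes Ccn1 (formerly Cyr61), Ccn2 (Ctgf) and Ccn3 (Nov), and Ankrd1, Amotl2, Lats2, Yap1, Thbs1, Tead1 and Ajuba. They were chosen by symbol, and every probe set of the array that the annotation gave to 1 of these symbols was taken. This found 11 probe sets for 8 of the 10 genes, out of 31042 probe sets and 14217 genes with a single symbol, and 0 of the 11 was shared with another gene. Ccn1, Ccn2, Ccn3, Amotl2 and Lats2 had 1 probe set each, and Ankrd1, Tead1 and Ajuba had 2 each. The annotation used here listed no probe set under Yap1 or Thbs1, so these 2 genes were not analysed here.

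The Hippo pathway is a kinase cascade that restrains the transcriptional coactivator YAP. The kinases LATS1 and LATS2 phosphorylate YAP, which then stays in the cytoplasm, and unphosphorylated YAP enters the nucleus, binds TEAD proteins on DNA and switches on genes such as Ccn1, Ccn2 and Ankrd1. In liver the pathway is known for its control of organ size and of the growth of hepatocytes and bile duct cells. Cell density, attachment and tension of the actin cytoskeleton are among its inputs, and several of its targets also respond to other factors, among them TGF-beta signalling and serum response factor.

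Each of the 4 groups held 3 plates of 1 rat cell line, and 1 Affymetrix Rat Genome 230 2.0 array was run per plate, giving 12 arrays. WB311 is a tumorigenic line that arose spontaneously from WB-F344, and WB-F344 is a diploid, non-tumorigenic liver epithelial line from an adult Fischer rat. The labels mark WB311 as resistant and WB-F344 as sensitive to rapamycin, an inhibitor of the mTORC1 kinase complex, and give WB311 the shorter doubling time. The groups were WB311 cells with rapamycin (50 nM) for 24 hr, WB311 cells with DMSO vehicle, WB-F344 cells with rapamycin (50 nM) for 24 hr and WB-F344 cells with DMSO vehicle. Both lines were grown in DMEM/F-12 with fetal bovine serum, so no group lacked serum. Each line stands for itself, and the plates are not stated to be separate cultures, so the p-values measure only the spread between plates.

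Values are intensities on a linear scale. Probe sets with an average of 100 or more in 1 of the groups compared entered the test. A probe set is described as called where limma gave an adjusted p under 0.05 (Benjamini-Hochberg over all probe sets tested) together with a fold change of 1.2 or more. Median intensity was between 59.5 and 62.9 on the 12 arrays, and arrays of a group correlated at 0.9886 or more. The WB-F344 plates numbered 2 stood apart: the log2 signal of the 3' probe set of beta-actin minus that of the 5' one, a sign of RNA quality, was 0.62 with rapamycin and 1.0 with vehicle on these 2 plates, against 0.21 to 0.25 on the other 4 WB-F344 arrays and 0.38 to 0.49 on the WB311 arrays. Hepatocyte markers gave little signal in either line (albumin, Alb, averaged 32.2 in WB311 with rapamycin, 33.5 in WB311 with vehicle, 31.9 in WB-F344 with rapamycin and 33.2 in WB-F344 with vehicle). Of the epithelial markers, Krt8 was high in both lines, Cdh1 averaged at most 21.5 in any group, and Krt18 averaged 247 in WB311 and 23.0 in WB-F344 cells with vehicle. Of 7 mesenchymal markers, 4 averaged at least 100 in WB311 and 6 in WB-F344.

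Promoter sequences are given first, because TEAD proteins bind the motif GGAATG and several of these genes are known TEAD targets. RefSeq promoter windows (build GRCr8) were found for 6 of the 10 members, and the 250 bases before the start site were searched on both strands for GGAATG, for the AP-1 motif TGANTCA and for the CArG box of serum response factor. All 6 windows held GGAATG, a motif found in 11.8% of the 27457 RefSeq windows of the same length. No AP-1 motif and no CArG box was found in the 6 windows, so no match overlapped another motif; these occur in 6.36% and 1.5% of all windows. A match is a run of letters and not a measured binding site.

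The windows of Ccn1 and Ccn2, the members with the largest responses to rapamycin in WB311 cells, are printed whole, with GGAATG or its reverse complement in capitals. The Ccn1 window lies on the minus strand at chr2:237225690-237225939, and the Ccn2 window on the minus strand at chr1:22624615-22624864.
Ccn1: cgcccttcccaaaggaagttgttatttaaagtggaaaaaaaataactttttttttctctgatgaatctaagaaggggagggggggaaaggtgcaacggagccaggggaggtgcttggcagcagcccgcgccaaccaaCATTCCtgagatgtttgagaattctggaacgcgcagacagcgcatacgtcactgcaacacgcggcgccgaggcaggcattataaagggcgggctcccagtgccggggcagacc
Ccn2: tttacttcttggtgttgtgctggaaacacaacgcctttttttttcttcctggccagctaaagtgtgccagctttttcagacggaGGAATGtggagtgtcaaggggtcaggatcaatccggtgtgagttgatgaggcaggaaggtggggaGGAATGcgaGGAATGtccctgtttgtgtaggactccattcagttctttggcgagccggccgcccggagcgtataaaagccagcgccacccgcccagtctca

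Ccn2 held 3 copies on its own strand, beginning 166, 101 and 92 bases before the start, and 3 or more copies occurred in 25 of the 27457 windows (0.0911%). Ccn1 held 1 copy on the other strand, beginning 113 bases before the start. For Amotl2 and Ajuba, which also rose with rapamycin in WB311 cells, only the 30 bases around the match are shown. The Amotl2 stretch lies on the plus strand at chr8:112182538-112182567, inside the annotated span of the gene, which begins farther upstream than the start site used for the window, and the Ajuba stretch lies on the minus strand at chr15:32000261-32000290.
Amotl2: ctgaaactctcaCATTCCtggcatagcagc
Ajuba: tgcccctccgcaCATTCCaactgtaaacaa

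The windows of Yap1 and Thbs1 held 1 copy each, beginning 116 and 47 bases before the start. As for Amotl2, the Yap1 copy lies inside the annotated span of its gene. The position map shows that the copies of Ccn1, Ccn2 and Yap1 fall between 87 and 166 bases before the start, that those of Amotl2 and Thbs1 lie nearer to it, and that the Ajuba copy lies farthest away, at 236.

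**Figure D1:**
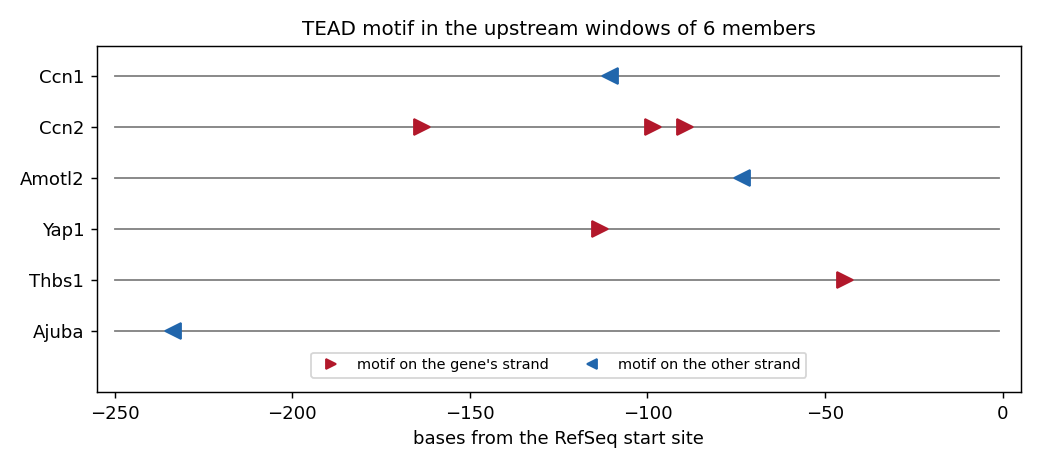
Position of GGAATG in the upstream windows of 6 members, in bases from the RefSeq start site (horizontal axis), with 1 line per gene. Right-pointing marks are matches on the gene's own strand and left-pointing marks are matches on the other strand; Ccn2 has 3 matches and each other gene has 1.

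In WB311 cells rapamycin was followed by higher levels of 5 of the 10 member probe sets tested, in 5 genes: Ccn1, Ccn2, Amotl2, Lats2 and Ajuba. All 10 had log2 fold changes above 0 (Ankrd1 1367664_at fell below 0 without WB311 rapamycin plate 2). Over the whole array 3.35% of 13135 probe sets were called in this comparison, 1.71% as higher, and the members' median log2 fold change was 0.33, against 0.0091 over all probe sets tested. The comparison asks what mTORC1 inhibition does in the resistant line.

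Ccn1 encodes a secreted matrix-associated protein that binds integrins and is a textbook YAP target. Its intensity was 602, 586 and 638 in WB311 cells with rapamycin, and 262, 310 and 337 in WB311 cells with vehicle. Every rapamycin plate was well above every vehicle plate, and the lowest value belonged to vehicle plate 1. The log2 fold change was 1.01 (SE 0.09, adjusted p = 0.000302 from limma), a 2.02-fold rise, and only 3 of the 13135 probe sets tested rose by more.

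Ccn2, the connective tissue growth factor gene and a matrix-associated relative of Ccn1, had intensities of 2808, 2982 and 3094 with rapamycin and 1608, 1755 and 1726 with vehicle. The plates of a treatment lay close together, and the treatments did not overlap. Its log2 fold change was 0.80 (SE 0.08, adjusted p = 0.000557 from limma), a 1.75-fold rise exceeded by 24 probe sets. The calls of Ccn1 and Ccn2 held under every alternative setting and without any single array.

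Ccn3, a further secreted member of the CCN family, averaged 39.7 ± 4.72 with rapamycin and 39.5 ± 3.97 with vehicle in WB311 cells (SD, n = 3 each). Both averages were under 100, so it was not tested there.

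Among the regulators, Amotl2 encodes an angiomotin-family scaffold that binds YAP and holds it at cell junctions, and is itself a YAP target. It measured 5874, 5837 and 6139 with rapamycin and 4695, 4497 and 4780 with vehicle. The treatments did not overlap, and the log2 fold change was 0.35 (SE 0.06, adjusted p = 0.0103 from limma). The call was lost without WB311 vehicle plate 2 (adjusted p = 0.0512) or without WB311 rapamycin plate 3 (adjusted p = 0.0602 from limma).

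Lats2, the kinase that phosphorylates YAP and that YAP induces in human cells, measured 1891, 1879 and 1836 with rapamycin and 1516, 1454 and 1552 with vehicle. The plates of each treatment were tightly grouped and apart from those of the other, with a log2 fold change of 0.31 (SE 0.07, adjusted p = 0.0274 from limma). Ajuba, a LIM-domain protein that restrains LATS kinases, measured 2838, 3097 and 2933 with rapamycin and 2219, 2318 and 2421 with vehicle on probe set 1373122_at. Here too all rapamycin plates were higher, and the log2 fold change was 0.35 (SE 0.08, adjusted p = 0.039 from limma). Both calls were lost when any 1 WB311 array was left out, at adjusted p between 0.064 and 0.114 for Lats2 and between 0.0794 and 0.167 for Ajuba, and both were lost with no intensity filter and with median centring.

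The other Ajuba probe set, 1388230_at, measured 761, 861 and 835 with rapamycin and 609, 619 and 601 with vehicle. The treatments did not overlap, yet with a log2 fold change of 0.42 (SE 0.22, adjusted p = 0.368 from limma) it was not called. The fit uses 1 spread for all 4 groups, and this probe set varied more between WB-F344 plates; with only the WB311 arrays in the fit the adjusted p was 0.00772. The 2 Ajuba probe sets thus gave the same direction and a different call.

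Ankrd1 encodes an ankyrin-repeat protein of muscle and stressed epithelial cells and is among the most used YAP target genes. In WB311 cells probe set 1367664_at averaged 139 ± 20.1 with rapamycin and 132 ± 7.79 with vehicle, and 1367665_at averaged 173 ± 5.26 with rapamycin and 149 ± 25.2 with vehicle (SD, n = 3 each). The plates of the treatments overlapped on both probe sets, with log2 fold changes of 0.07 (95% confidence interval -0.16 to 0.29) and 0.23 (-0.19 to 0.65). Rises of the size of Ccn1 lay outside both intervals.

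Tead1, the DNA-binding partner of YAP, averaged 528 ± 23.5 with rapamycin and 495 ± 32.5 with vehicle on probe set 1373808_at (SD, n = 3 each), where the plates overlapped. On 1389287_at it measured 2034, 2011 and 1984 with rapamycin and 1856, 1865 and 1872 with vehicle, without overlap, and the log2 fold change was 0.11 (SE 0.15, adjusted p = 0.808 from limma). Neither probe set was called.

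**Figure D2:**
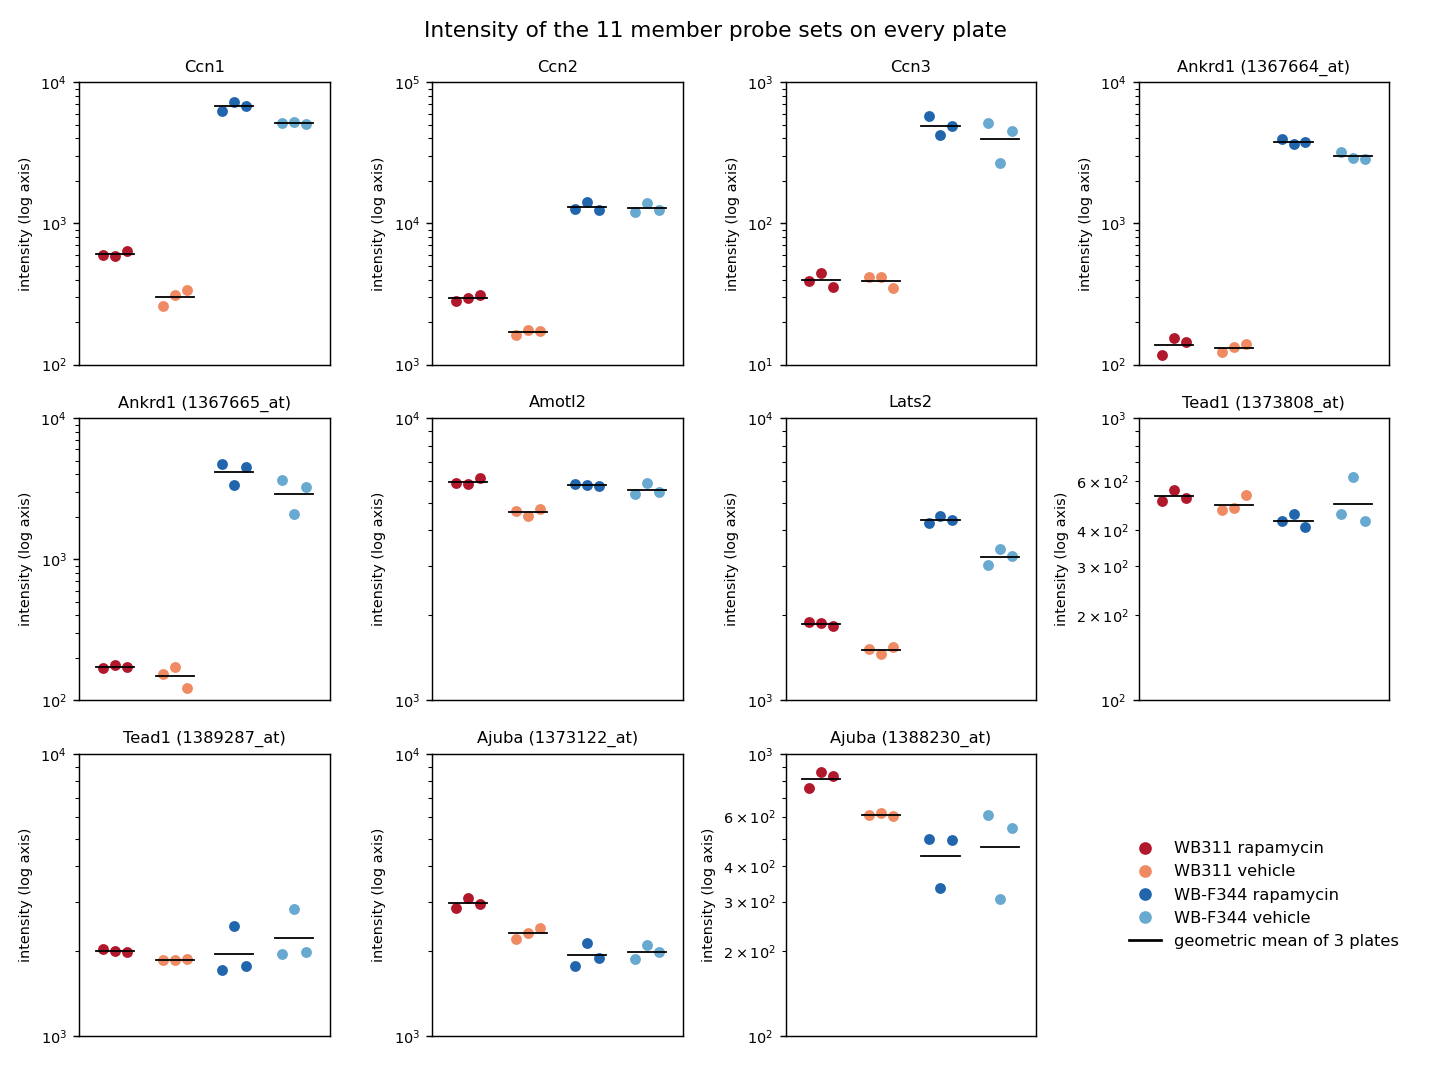
Intensity (log axis) of the 11 member probe sets on each of the 12 plates, 1 panel per probe set, with points for plates and a line for the geometric mean of 3 plates; groups run from left to right as WB311 with rapamycin, WB311 with vehicle, WB-F344 with rapamycin and WB-F344 with vehicle. Ccn1, Ccn2, Ccn3, Ankrd1 and Lats2 lie lower in WB311 than in WB-F344 on every plate, and Amotl2 is lowest in WB311 with vehicle.

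In WB-F344 cells, the rapamycin-sensitive line, 3 of the 11 member probe sets tested were called, all higher with rapamycin: Ccn1, Lats2 and 1 probe set of Ankrd1. Over the array 23.0% of 13261 probe sets were called and 7.74% were called higher, so the share of members called, 27.3%, was near the background. The members' median log2 fold change was 0.05, against -0.05 over all probe sets tested.

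Ccn1 measured 6257, 7230 and 6781 in WB-F344 cells with rapamycin and 5179, 5222 and 5095 with vehicle. The vehicle plates were almost equal and every rapamycin plate exceeded them, with a log2 fold change of 0.38 (SE 0.09, adjusted p = 0.00881 from limma). Lats2 measured 4237, 4499 and 4373 with rapamycin and 3017, 3433 and 3238 with vehicle. There was no overlap, and the log2 fold change of 0.44 (SE 0.07, adjusted p = 0.000603 from limma) was the largest among the members called in this line.

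Ankrd1 on probe set 1367664_at measured 3962, 3684 and 3777 with rapamycin and 3216, 2900 and 2860 with vehicle. All rapamycin plates were higher, with a log2 fold change of 0.35 (SE 0.10, adjusted p = 0.0247 from limma); the call was lost without vehicle plate 3 (0.0797), rapamycin plate 1 (0.0789) or rapamycin plate 3 (adjusted p = 0.0597 from limma). On 1367665_at it measured 4700, 3377 and 4474 with rapamycin and 3617, 2099 and 3274 with vehicle. Plate 2 was the lowest of both treatments, the treatments overlapped, and the log2 fold change of 0.50 (SE 0.19, adjusted p = 0.0747 from limma) was not called. Ccn3 gave the same picture, with 579, 426 and 490 with rapamycin and 515, 270 and 450 with vehicle. Plate 2 was again lowest in both treatments, and the log2 fold change was 0.32 (SE 0.20, adjusted p = 0.285 from limma). It was 0.04 without WB-F344 vehicle plate 2 and 0.145 without both plates numbered 2.

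The WB-F344 plates numbered 2 deviated together, while plates 1 and 3 correlated about as strongly across numbers as within them. The pairing of plates by number thus rests on plate 2. With the plate number as a block within lines 5 member probe sets were called in WB-F344 cells. Those added were Ccn3 (adjusted p = 0.0349) and Ankrd1 1367665_at (adjusted p = 0.00287 from limma). Without both plates numbered 2, Ankrd1 1367665_at was called as well, at 0.41 on the log2 scale (limma, adjusted p = 0.031). The part of RNA quality in the low values of plate 2 was not tested. The summed intensity of the 7 mesenchymal markers was 35628 to 40910 with rapamycin and 44152 to 51760 with vehicle in this line. These markers did not move as a group. Col1a1, Col3a1 and Vim averaged lower with rapamycin, while Tagln (7246 with rapamycin, 5478 with vehicle), Acta2 (1075, 981), Des (160, 134) and Pdgfrb averaged higher. The epithelial sum was 2256 to 2518 with rapamycin and 2797 to 3187 with vehicle, and the leukocyte sum was 1123 to 1373 with rapamycin and 624 to 749 with vehicle, most of it from Cd14, while the defining marker Ptprc averaged at most 22.9 in any group. The biliary and progenitor sums overlapped between treatments, though Spp1 averaged 1022 with rapamycin and 282 with vehicle. The part of these markers in the members' values was not tested.

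Ccn2 did not move in the same way in WB-F344 cells: it measured 12626, 14094 and 12443 with rapamycin and 12090, 13969 and 12528 with vehicle. The treatments overlapped, and the log2 fold change was 0.02, with a 95% confidence interval of -0.15 to 0.20 that leaves out a rise of the size seen in WB311; with median centring it was -0.01. Amotl2 measured 5821, 5813 and 5730 with rapamycin and 5384, 5874 and 5478 with vehicle, overlapping, with an interval of -0.08 to 0.19 on the log2 scale.

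Ajuba and Tead1 had log2 fold changes below 0 in WB-F344 cells on all 4 probe sets, between -0.20 and -0.04, and none was called; those of Ajuba changed sign, 1373122_at with cyclic loess scaling and both with single WB-F344 arrays left out. On Tead1 1389287_at the intensities were 1711, 2452 and 1768 with rapamycin and 1957, 2819 and 1984 with vehicle, and here plate 2 was the highest of both treatments. On Ajuba 1388230_at plate 2 was the lowest, with 500, 334 and 497 with rapamycin and 608, 306 and 548 with vehicle. The plates numbered 2 thus departed in different directions on different probe sets.

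**Figure D3:**
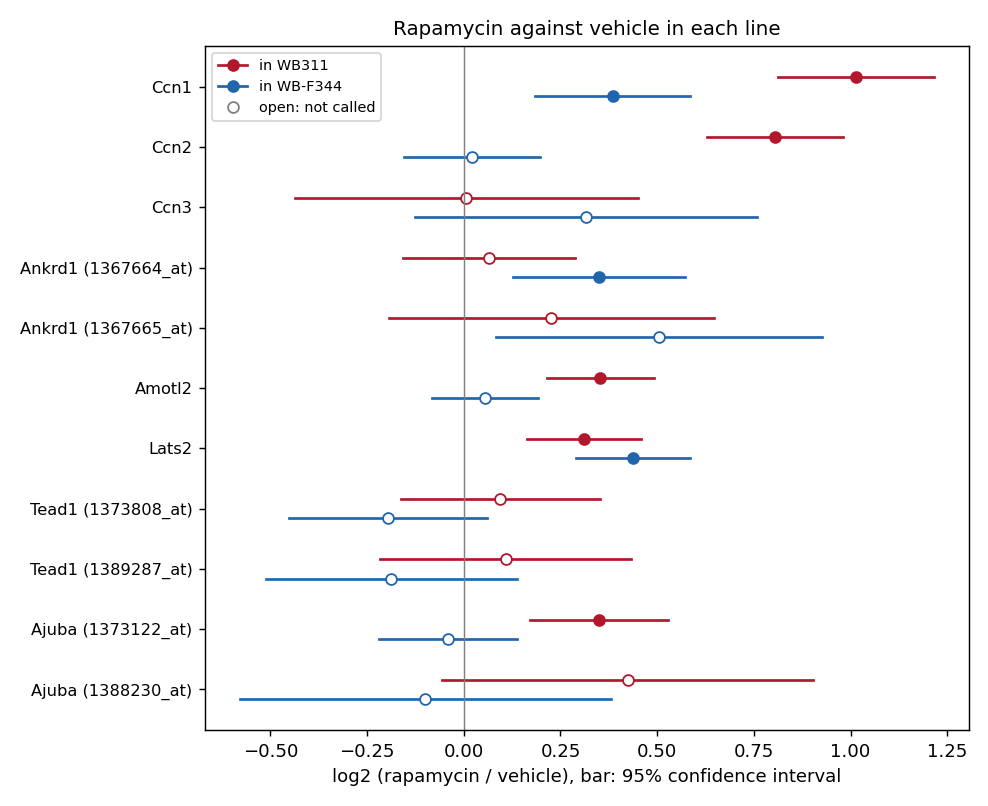
Log2 fold change, rapamycin over vehicle, of the 11 member probe sets in WB311 (red, upper) and in WB-F344 (blue, lower), with 95% confidence intervals as bars; filled points were called and open points were not, and Ccn3 was not tested in WB311. The intervals of Ccn1, and those of Ccn2, do not overlap between the lines, while those of Lats2 do.

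Whether the response itself differed between the lines was tested as the rapamycin response in WB311 minus that in WB-F344. Ccn1 and Ccn2 were the 2 of 11 member probe sets called, and both responded more in WB311. Over the array 10.0% of 14214 probe sets were called, 6.87% with the larger response in WB311. The difference was 0.63 on the log2 scale for Ccn1 (SE 0.13, adjusted p = 0.00926 from limma) and 0.78 for Ccn2 (SE 0.11, adjusted p = 0.00126 from limma), and it was called for both under every alternative setting and without any single array.

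Amotl2, with a difference of 0.30 (SE 0.09, adjusted p = 0.0531 from limma), and Ajuba 1373122_at, with 0.39 (SE 0.12, adjusted p = 0.0537 from limma), lay just past the threshold. With the plate number as a block within lines both were called (adjusted p = 0.0465 and 0.0187 from limma), as were Ajuba 1388230_at and Tead1 1389287_at, which made 6 in all. Lats2 rose in both lines, and its difference was -0.13 (95% confidence interval -0.33 to 0.08). For Ankrd1 the differences were -0.28 on each probe set, neither called (adjusted p = 0.263 and 0.607 from limma), so the call of Ankrd1 in WB-F344 alone was not shown to be a difference between the lines. Ccn3 had a difference of -0.31 (SE 0.29, adjusted p = 0.588 from limma).

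Set side by side without drug, WB311 cells had far lower levels of Ccn1, Ccn2, Ccn3 and Ankrd1 than WB-F344 cells. With vehicle 6 of 11 member probe sets were called, all lower in WB311 and in 5 genes: Ccn1, Ccn2, Ccn3, Ankrd1 and Lats2. With rapamycin 8 were called, the same 6 probe sets lower and both Ajuba probe sets higher in WB311. The lines differed throughout: 59.3% of 13949 probe sets were called with rapamycin (33.3% higher and 26.0% lower in WB311), and 56.0% of 13871 with vehicle (28.1% lower). The share of members called was 72.7% with rapamycin. With vehicle it was 54.5%, near the share over the array. The members' median log2 difference was -1.23 with rapamycin (0.06 over all probe sets tested) and -1.10 with vehicle (0.02 over all).

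Ankrd1 was lower in WB311 by a wide gap. On 1367664_at it was 116, 155 and 145 in WB311 and 3962, 3684 and 3777 in WB-F344 cells with rapamycin, and 124, 133 and 139 in WB311 and 3216, 2900 and 2860 in WB-F344 cells with vehicle. WB311 cells thus stayed near the intensity of 100 used as the lower limit under both treatments, and the log2 differences were -4.79 with rapamycin and -4.50 with vehicle (27.6-fold and 22.7-fold lower). The other probe set gave -4.58 and -4.30, so both probe sets of Ankrd1 agreed on the gap.

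Ccn1 was 11.1-fold lower in WB311 than in WB-F344 cells with rapamycin (log2 difference -3.47, SE 0.09) and 17.1-fold lower with vehicle (-4.10, SE 0.09). Ccn2 was 4.41-fold lower with rapamycin (-2.14, SE 0.08) and 7.57-fold lower with vehicle (-2.92, SE 0.08). The rise of both genes with rapamycin in WB311 thus left every WB311 plate far below every WB-F344 plate. For Ccn3 the differences were -3.64 with rapamycin and -3.34 with vehicle, but the WB311 averages of about 40 are low enough that these sizes are rough.

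Lats2 was 2.34-fold lower in WB311 with rapamycin (log2 difference -1.23, SE 0.07) and 2.14-fold lower with vehicle (-1.10, SE 0.07). Its 4 groups fell in a clear order with no overlap between neighbours: WB311 with vehicle was lowest, then WB311 with rapamycin, WB-F344 with vehicle and WB-F344 with rapamycin. Ccn1 had the same order of groups, also without overlap, and in Ccn2 the 2 WB-F344 groups could not be ordered.

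Amotl2 behaved differently. WB311 cells averaged 5950 ± 164 and WB-F344 cells 5788 ± 50.7 with rapamycin, a log2 difference of 0.04 (95% confidence interval -0.10 to 0.18) that was -0.05 with cyclic loess scaling. With vehicle they averaged 4657 ± 145 and 5579 ± 260 (SD, n = 3 each), a log2 difference of -0.26 (adjusted p = 0.00328 from limma) whose fold change fell just short of the 1.2 required, and which was called in 6 of 21 alternative settings. WB311 cells with vehicle were the group that stood apart, below the 3 others.

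Ajuba was higher in WB311, by 0.61 on the log2 scale with rapamycin (SE 0.08, adjusted p = 3.07e-05 from limma) on 1373122_at and by 0.91 (SE 0.22, adjusted p = 0.00305 from limma) on 1388230_at. With vehicle the differences were 0.22, a fold change of 1.17, and 0.38, and neither was called. The 0.38 of 1388230_at lay between 0.0786 and 0.575 with 1 array left out, and it was called without WB-F344 vehicle plate 1 (adjusted p = 0.0432 from limma). Tead1 differed little between the lines, with log2 differences of 0.28 and 0.04 with rapamycin and -0.01 and -0.25 with vehicle, none called, and the values nearest 0, 0.04 and -0.01, changed sign in some alternative settings. The 0.28 of 1373808_at with rapamycin missed the threshold narrowly (adjusted p = 0.0507 from limma) and was called in 7 of 21 alternative settings, among them without both WB-F344 plates numbered 2 (adjusted p = 0.00289 from limma).

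The summed intensity of the mesenchymal markers was lower in WB311. With rapamycin it was 12291 to 12818 in WB311 and 35628 to 40910 in WB-F344 cells. With vehicle it was 12868 to 13155 in WB311 and 44152 to 51760 in WB-F344 cells. The markers differed in size and direction. With vehicle Col1a1 averaged 200 in WB311 and 12835 in WB-F344 cells, and Vim averaged 11836 and 14708. Pdgfrb went the other way with vehicle, at 63.1 in WB311 and 55.2 in WB-F344 cells. Tagln and Acta2 of this marker list are also in the list of serum response factor targets. The summed biliary and progenitor markers with rapamycin were 582 to 643 in WB311 and 5999 to 6413 in WB-F344 cells. With vehicle they were 654 to 736 in WB311 and 5751 to 6912 in WB-F344 cells, most of it from Krt7 in WB-F344. Krt19 went the other way, at 86.7 in WB311 and 25.3 in WB-F344 with rapamycin, and 110 and 23.1 with vehicle. Spp1 was higher in WB311 with vehicle (414 against 282) and lower with rapamycin (290 against 1022). The epithelial sum was higher in WB311, at 5719 to 5936 against 2256 to 2518 in WB-F344 with rapamycin and 6127 to 6569 against 2797 to 3187 with vehicle. So was the endothelial sum, at 1058 to 1239 in WB311 and 111 to 133 in WB-F344 with rapamycin and 985 to 1117 in WB311 and 82.7 to 95.9 in WB-F344 with vehicle, nearly all of it from Tek, while Pecam1 and Kdr averaged at most 18.9 in any group. The part of these markers in the lower CCN and Ankrd1 values was not tested. In such bulk samples fewer cells of a type and less RNA per cell cannot be told apart.

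**Figure D4:**
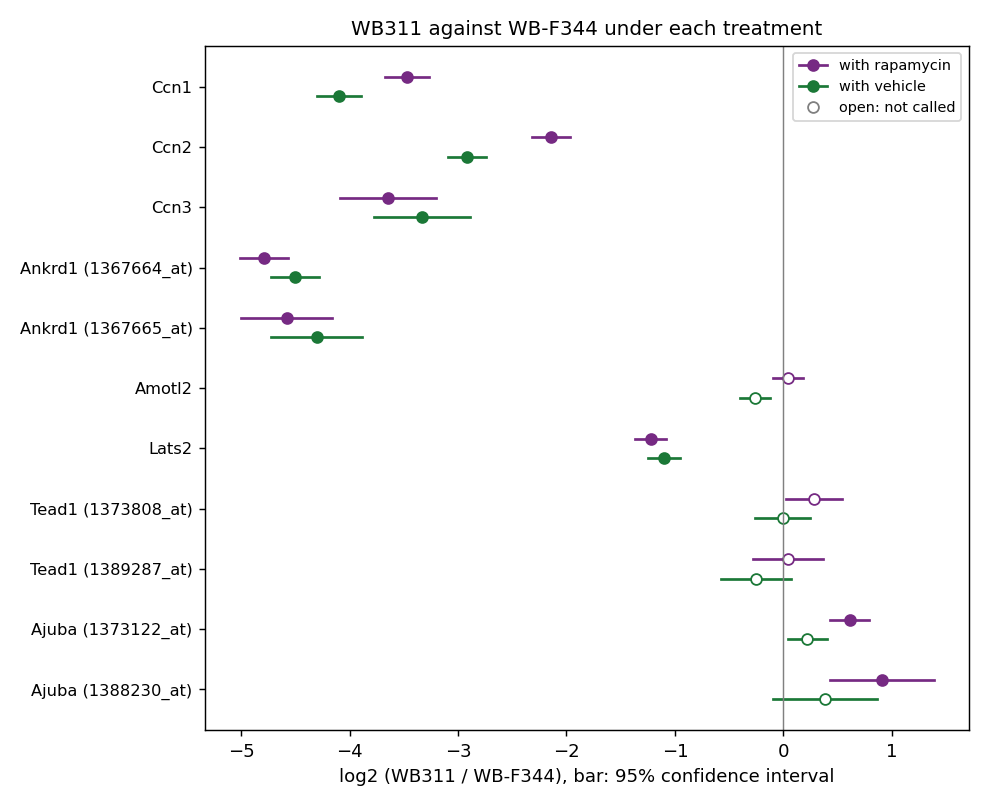
Log2 difference, WB311 over WB-F344, of the 11 member probe sets with rapamycin (purple, upper) and with vehicle (green, lower), with 95% confidence intervals as bars; filled points were called and open points were not. Ccn1, Ccn2, Ccn3, Ankrd1 and Lats2 lie left of 0 under both treatments, and Ccn1 and Ccn2 lie closer to 0 with rapamycin.

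Other genes of the pathway were followed in 6 lists. Among 18 other YAP and TEAD targets, 14 were tested between the lines: 11 were lower and 1 was higher in WB311 with rapamycin, and 12 were lower and 1 higher with vehicle. Over the array 59.3% were called with rapamycin (26.0% lower) and 56.0% with vehicle (28.1% lower). The RNA-binding protein gene Rbms3 had a log2 difference of -4.35 with rapamycin and -4.71 with vehicle (WB311 averages under 100), the receptor tyrosine kinase gene Axl -2.60 and -2.44, and tissue factor (F3) -2.59 and -2.45. The exception was Gadd45a, a stress-induced gene, which was higher in WB311 by 2.40 with rapamycin and 2.25 with vehicle. The median over the list was -1.08 with rapamycin and -1.19 with vehicle, close to that of the members.

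With rapamycin in WB311 cells 0 of 12 of these targets were called with limma, against 3.35% over the array. An unadjusted p under 0.05 was found for 5, against 2232 of 13135 probe sets. The methods' t-test called 6, against 9.39% over the array, and the list's median log2 fold change was 0.25. In WB-F344 cells 2 of 14 rose, the AP-1 subunit gene Fosl1 (0.67) and Axl (0.31). Gadd45a (-0.45) and the tumour suppressor gene Dlc1 (-0.51), also 2 of 14, fell. Over the array 23.0% were called in WB-F344. The methods' t-test called 2 there, against 15.3% over the array. Of 22 alternative settings the call of Dlc1 was lost in 4, that of Gadd45a in 2, that of Axl in 1 and that of Fosl1 in 0. The response differed between the lines for Dlc1 (0.99 higher in WB311) and Fosl1 (-0.97), 2 of 14 tested, against 10.0% over the array. Fosl1 averaged 60.7 with rapamycin and 74.9 with vehicle in WB311, under 100, so it was not tested there and its difference is rough in size.

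Of the closest relatives, Ccn4 and Thbs3 were the 2 of 6 tested. Ccn4, another secreted CCN gene, averaged 399 ± 39.9 with rapamycin and 296 ± 17.0 with vehicle in WB311, and 818 ± 59.4 with rapamycin and 1035 ± 128 with vehicle in WB-F344 (SD, n = 3 each). It rose in WB311 by 0.43 (adjusted p = 0.0487 from limma) and fell in WB-F344 by 0.34 (adjusted p = 0.0348 from limma), and these calls were lost in 11 and 10 of 22 alternative settings. The difference of the responses, 0.76 (SE 0.15, adjusted p = 0.00675 from limma), was called in all 20 alternative settings, and it has the direction found for Ccn1 and Ccn2. Thbs3, a thrombospondin gene, fell in WB-F344 by 0.54 (adjusted p = 0.00126 from limma) and had a log2 fold change of 0.09 in WB311; the difference was 0.63 (SE 0.13).

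Upstream, the Hippo kinases and their regulators that were called with vehicle were also lower in WB311. Of 16 tested 9 were lower and 0 were higher, a share called near the 56.0% of the array (28.1% lower). Those with the smallest p were Frmd6 (-1.16), Map4k4 (-0.81), Fat1 (-1.18) and Rassf1 (-0.63). The methods' t-test called 7. Of 21 alternative settings the call of Stk4 was lost in 12, that of Wwc2 in 3 and that of Dchs1 in 2. With rapamycin 7 of 15 were lower and 1, Stk3 (0.28, lost in 6 settings), was higher, against 59.3% called and 26.0% called lower over the array. Nf2, the gene of the tumour suppressor merlin, had a log2 difference of -0.98 with rapamycin and -1.31 with vehicle. With rapamycin 2 of 16 were called in WB-F344, against 23.0% over the array, and 1 of 15 in WB311, against 3.35%. Frmd6 rose (0.42) and Rassf1 fell (-0.33) in WB-F344; the call of Frmd6 was lost when the WB311 arrays were left out of the fit and by the methods' t-test, and that of Rassf1 with cyclic loess scaling. Ptpn14, whose phosphatase binds YAP, rose in WB311 (0.38 on the log2 scale, adjusted p = 0.0219 from limma), a call lost when any 1 WB311 array was left out.

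Among the coactivators and DNA-binding partners, the TEAD genes went both ways between the lines: Tead3 was lower in WB311 (-0.62 with rapamycin and -1.07 with vehicle) and Tead4 was higher (1.07 and 0.43), as was Tead2 with rapamycin (0.73). The call of Tead4 with vehicle was lost in 2 of 21 alternative settings. Tead2 fell with rapamycin in WB-F344 (-0.46, adjusted p = 0.000993 from limma), and its response differed between the lines by 0.48. The cofactor genes Vgll3 (-1.81 with rapamycin, -1.64 with vehicle) and Vgll4 (-0.63 and -0.92) were lower in WB311. Of the LIM and angiomotin adaptors, Amot was lower in WB311 with rapamycin (-0.81) and with vehicle (2.00-fold), Amotl1 (-0.33) and Wtip (-0.42) were called lower with vehicle, and Limd1 was called higher with rapamycin (0.31). Those calls of Wtip and Limd1 were each lost in 1 of 21 alternative settings. For the response, and so for the change of these gaps between treatments, limma called 0 of the 4, also at an unadjusted p under 0.05. Over the array 10.0% were called for the response.

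Targets of serum response factor and its cofactor MRTF, which share stimuli with YAP, were lower in WB311 for 6 of 7 tested with each treatment. Over the array 26.0% were called lower with rapamycin and 28.1% with vehicle. The smooth-muscle gene Tagln (-6.42 with rapamycin, -6.19 with vehicle) and the LIM-domain gene Fhl1 (-5.95 and -5.86) had WB311 averages under 100. Fhl2 (-2.32 and -1.78) and vinculin, Vcl (-1.31 and -1.03), followed, and only the tropomyosin gene Tpm1 was higher in WB311 (0.83 and 0.46). With rapamycin only Vcl of 7 tested was called in WB-F344, as higher (0.28, adjusted p = 0.0114 from limma), against 23.0% over the array. The call of Vcl was lost in 3 of 22 alternative settings. In WB311 0 of 5 tested were called with limma, against 3.35%, and 1 had an unadjusted p under 0.05. The methods' t-test called 1 in WB311, against 9.39%.

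**Figure D5:**
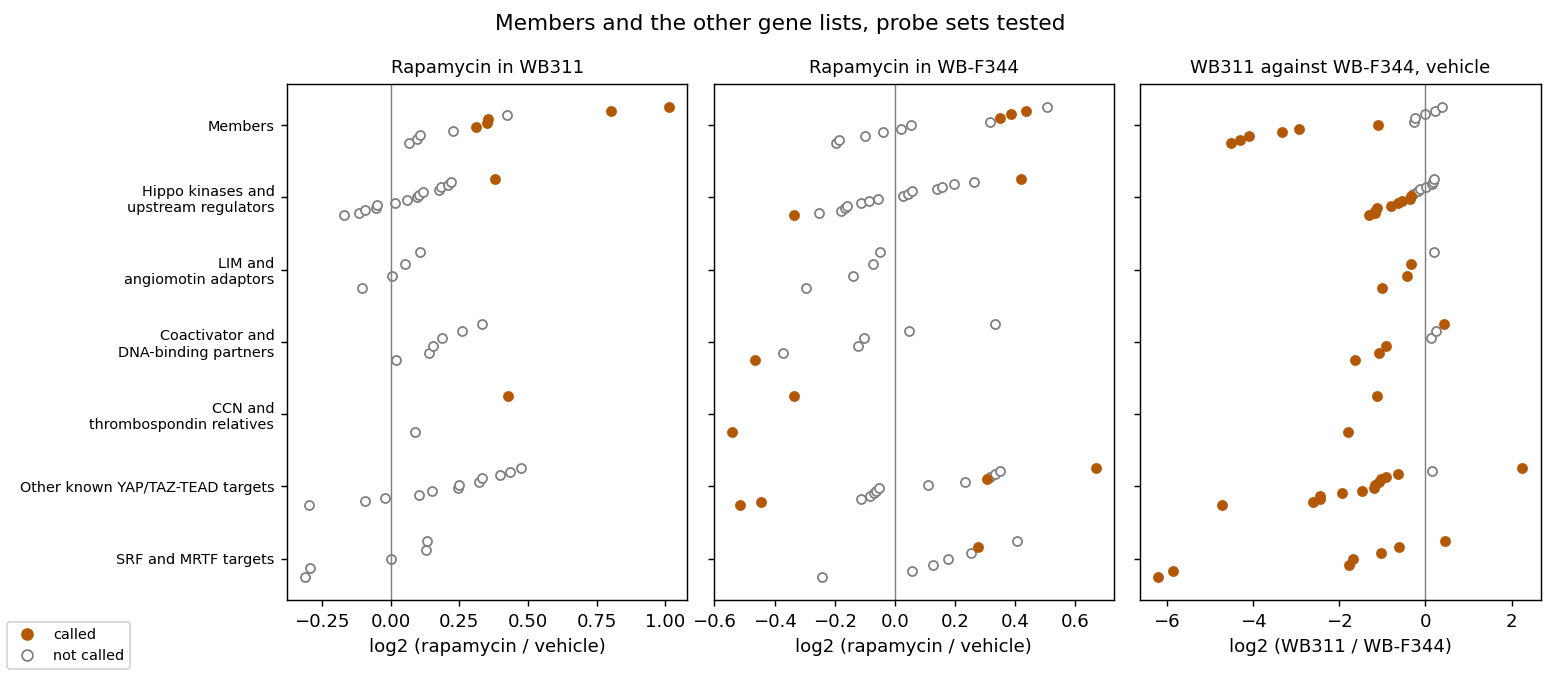
Log2 fold changes of the tested members and genes of 6 other lists, 1 point per probe set, in 3 panels: rapamycin over vehicle in WB311, rapamycin over vehicle in WB-F344, and WB311 over WB-F344 with vehicle; the axes of the panels differ in scale. Filled points were called; in the WB311 panel 5 of the 7 filled points are members, and in the vehicle panel most points of the target lists lie left of 0.

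The genes whose pattern over the 12 arrays was most like that of Ccn1, among 11470 probe sets compared, were Ocln (Pearson r = 0.999), Cux1 (0.998), Pcbd2, Dusp1 and Ptgis (0.996 each). For Ccn2 they were Cux1 (0.996), Anxa3 and S100a4 (0.995 each), Tns1 and Babam2 (0.994 each). These correlations are dominated by the gap between the lines, which all arrays of a line share. After the mean of each line was subtracted, Ocln (0.966), Epha2 (0.948), Cux1 (0.947), Fn1 (0.941) and Dusp1 (0.938) were nearest to Ccn1, and Paqr8, Gadd45b (0.961 each), Hcfc1r1 (0.953), Cntln (0.939) and Smpd1 (0.935) to Ccn2. They describe 12 arrays and carry no test.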

How the data were processed

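RNA from 3 plates per group was hybridised by the authors to Affymetrix Rat Genome 230 2.0 arrays, and the deposited values are intensity on a linear scale after Robust Multiarray Average (RMA in the submitters' processing notes; no version given). This method sets the arrays to 1 distribution, so a shift of all genes would not be seen. No column was left unmatched (0 columns). Probe sets were named by GEO's platform annotation; 20826 of 31042 had 1 symbol, 436 several and 9780 none, and 57 controls were used only for RNA quality. For members with several probe sets each was kept; for other genes 1 probe set of highest average intensity stood for the gene.

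The log2 of the values was fitted with limma 3.58.1 in R 4.3.3 over all 12 arrays as 4 groups of 3. Probe sets averaging at least 100 in 1 of the groups compared were tested, with Benjamini-Hochberg adjustment over them, and called at an adjusted p of 0.05 and a fold change of 1.2. Comparisons share arrays. The members and lists were chosen with earlier results of these data known. All members are given by value; of each other list and comparison, called genes are named, up to 4 by smallest p. Promoters came from RefSeq (GRCr8) and were searched with Python 3.11.15. Array number limits precision.

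Replicate numbers came from the sample titles. Deviations from the group means correlated at 0.676, 0.871 and 0.561 between WB-F344 plates of the same number, so the numbers were taken to pair these plates, though plates 1 and 3 correlated as strongly across numbers (0.605 and 0.581) and only plate 2 was set apart. Same-numbered WB311 plates correlated at -0.0569, -0.000258 and -0.139, and are not paired. Alternatives were no intensity filter, cyclic loess, median centring, only the groups compared, the methods' t-test and the fold filter before adjustment. Others were replicate blocks, the plates numbered 2 left out and each array left out. Variances moderated over tested probe sets only were an alternative chosen after seeing the data.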

Additional observations from a re-analysis of the deposited data

Results flagged for a closer look

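For 10 of the genes described the response to rapamycin differed between the lines by the test of the difference itself (limma, WB311 response minus WB-F344 response, log2). Tested were 11 member probe sets and 16, 4, 6, 2, 14 and 7 genes of the 6 other lists. Over the array 10.0% of 14214 probe sets were called in this test, 6.87% with the larger response in WB311. Of the members these were Ccn1, at 0.629 (0.63), and Ccn2, at 0.782 (0.78), both rising more in WB311. Of the other lists, the difference was 0.99 for Dlc1, 0.762 for Ccn4, 0.632 for Thbs3, 0.483 for Tead2, 0.436 for Ptpn14 and 0.375 for Tpm1, and -0.968 for Fosl1 and -0.547 for Fhl2. Those of Ptpn14 and Tpm1 were each lost in 8 of 20 alternative settings, and those of the other 8 genes in none. Both WB311 averages of Fosl1 were under 100, so the size of its difference is rough.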

How the results depend on the processing

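No call of a member reversed its direction. Of 24 calls of a member probe set in the 5 comparisons, 20 held in every setting, among them all those of Ccn1, Ccn2, Ccn3 and Lats2 between the lines; the exceptions were Amotl2, Lats2 and Ajuba 1373122_at in WB311 and Ankrd1 1367664_at in WB-F344. In 17 cases a value called neither way changed sign. With rapamycin in WB-F344, 3 member probe sets were called, 5 with the replicate block within lines and 2 to 4 with 1 array left out. In WB311, 5 were called, 3 with no intensity filter, 3 with median centring and 2 to 5 with 1 array left out; with the block over all arrays Lats2 was lost there (adjusted p = 0.0504 from limma). For the difference of the responses, 2 were called, 4 with the fold filter before adjustment, 6 with the block within lines, 5 without both WB-F344 plates numbered 2, 4 with variances moderated over tested probe sets only, a setting chosen after seeing the data, and 2 to 3 with 1 array left out. Between the lines 8 to 9 with rapamycin and 6 to 8 with vehicle were called with 1 array left out. The WB311 plates do not pair by number, and the block within lines gave 6 calls there. The cause of these changes was not tested.

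Over the whole array, the 440 calls in WB311 became 289 with no intensity filter, 1140 when the WB-F344 arrays were left out of the fit, 1234 by the methods' t-test, 1112 with the fold filter first, 1019 with the block within lines, 1188 without both WB-F344 plates numbered 2 and 165 to 723 with 1 array left out. The 3055 calls in WB-F344 became 1853 when the WB311 arrays were left out and 2035 by the methods' t-test, and the 1424 differences of response became 2605 with the fold filter first, 2761 with the block within lines and 2527 without those plates. At an unadjusted p under 0.05 the methods' t-test gave 3801 probe sets in WB311 and 3561 in WB-F344. Of 94 calls in the other lists 18 were lost in at least 1 setting and 0 reversed. Values under an intensity of 100, as for Ccn3 in WB311, lie near the lower end of the arrays' range and set only rough fold changes.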
